A study of Mus musculus with 2 samples.

Results

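Muscle contracts when acetylcholine released by a motor nerve opens its receptor, a ring of 5 subunits in the fibre membrane. Chrna1, Chrnb1 and Chrnd encode subunits found in every form of the muscle receptor. Chrng encodes the gamma subunit of the embryonic form, and Chrne encodes the epsilon subunit that replaces it in the adult form. In innervated adult fibres these genes are transcribed mainly by the few nuclei under the nerve ending. A fibre that loses its nerve, or that is being built anew from satellite cells, transcribes the embryonic set along its length. The other 4 genes mark the same state or the opposite one. Musk encodes the receptor tyrosine kinase that gathers receptors under the nerve, and Ncam1 encodes an adhesion molecule that spreads over denervated and newly formed fibres. Runx1 encodes a transcription factor known to be induced in denervated muscle. Scn4a encodes the sodium channel that carries the action potential of adult skeletal muscle.

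These 9 genes were chosen by name from the 32285 genes listed in the deposited tables and were matched by symbol, and all 9 had counts. The data are 2 libraries of single nuclei from the tibialis anterior, a muscle of the front of the lower leg. The mice were male, 16 to 20 weeks old, had chronic kidney disease and had the femoral artery ligated 5 days earlier, which makes the limb ischaemic. Both libraries carry the same strain label, a floxed allele of the aryl hydrocarbon receptor gene Ahr (AHRtm3.1Bra/J) together with the transgene Tg(ACTA1-cre/Esr1*)2Kesr/J, a Cre recombinase driven by the skeletal actin promoter and so acting in muscle fibres. It is fused to a modified oestrogen receptor and needs a drug such as tamoxifen to act, and no dosing is given in the labels. The first library is labelled AHRfl/fl and the second AHRmKO, the muscle knockout. The number of mice behind a library is not stated. The design asks what the loss of this receptor in muscle does in the ischaemic limb. With 1 library per group, no difference between groups has a replicate check, and no p-value is given.

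The AHRfl/fl library held 151788328 unique molecular identifiers (UMIs, each a captured RNA molecule) and gave 19056 barcodes with at least 2000 UMIs, called nuclei here. The AHRmKO library held 113737134 UMIs and gave 9015 nuclei, and 43 barcodes occurred in both. Mitochondrial genes made up 1.98% and 4.88% of the UMIs of nuclei, and nuclei held 59.3% and 38.5% of each library's UMIs. Fibre nuclei were those in which Ttn, Neb, Trdn and Dmd, genes of the contractile apparatus and its anchorage, made up at least 1% of UMIs. They numbered 5144 and 3771, and were split at 0.1% of UMIs from Myh3, the embryonic myosin of newly formed fibres, into 1790 and 1850 Myh3-low and 3354 and 1921 Myh3-high nuclei. Of these, 893 and 174 had a Myh3 share between 0.08% and 0.125%, close to the split. Adult fast myosin was present in the Myh3-low nuclei, with Myh4 at 626 and 1033 UMIs of every 1000000 and Myh1 at 506 and 883. Levels below are UMIs per 1000000 UMIs of a class (CPM), with AHRfl/fl given first. Ranges in brackets are 95% intervals of counting error only. A 3′ tag counts a transcript with or without a floxed exon, so it does not check the deletion, and Ahr stood at 24.01 and 21.96 in Myh3-low and at 34.8 and 32.1 in Myh3-high fibre nuclei.

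RNA set free by broken cells enters every droplet, and it differed between the libraries for several of these genes. Droplets of 200 to under 500 UMIs, which hold mostly such RNA, had Chrna1 at 1002 CPM in AHRfl/fl and 80.8 in AHRmKO. Chrng stood there at 248 and 63.6, Musk at 78.1 and 104.5, Scn4a at 6.18 and 12.8, Ncam1 at 823 and 1536, and Runx1 at 844 and 2941. Barcodes of at most 100 UMIs, another reading of free RNA, gave other values: Chrna1 at 502 and 171, Chrng at 192 and 165, Musk at 107 and 88.3, Scn4a at 6.83 and 15.9, Ncam1 at 1392 and 1208, and Runx1 at 1695 and 2201. The Chrna1 gap was thus smaller there, and Musk and Ncam1 stood the other way, so the make-up of free RNA depends on the barcodes it is read from. Myh3, which splits the fibre nuclei, made up 0.291% and 0.0427% of UMIs in the droplets of 200 to under 500 UMIs. The AHRfl/fl share of these droplets lay above the split. In barcodes of at most 100 UMIs Myh3 stood at 1615 and 808 CPM, a smaller gap. Free RNA was estimated at 28.8% and 46.5% of UMIs in Myh3-low and at 21.3% and 27.9% in Myh3-high fibre nuclei. How far it moved fibre nuclei across the split was not tested. Macrophage-like nuclei (6871 and 2531) serve below as a level that a receptor gene has without muscle transcription.

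Among the members, Chrna1 and Chrng lay on opposite sides between the libraries in Myh3-high nuclei, both short of 2-fold. Chrna1 was no longer lower there once free RNA was subtracted in the ways given below. Chrne was almost undetected, and Musk had its highest level where Chrng was low. The start regions of these 4 members are shown. Each is the part of the 250 bases before the RefSeq start site that overlaps no exon of its own gene, from build GRCm38.p6, 5′ to 3′ along the gene. Capitals mark matches, on either strand, to CANNTG, the E box bound by myogenic factors such as myogenin, and to CCGGAA, the core of the N box bound by ETS factors at synaptic genes.
Chrna1, chr2:73580339-73580588, minus strand: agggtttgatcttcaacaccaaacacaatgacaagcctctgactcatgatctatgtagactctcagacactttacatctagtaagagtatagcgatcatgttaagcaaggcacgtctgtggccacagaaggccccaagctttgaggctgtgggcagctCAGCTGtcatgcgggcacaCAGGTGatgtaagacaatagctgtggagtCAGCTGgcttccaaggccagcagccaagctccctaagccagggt
Chrng, chr1:87205561-87205809, plus strand: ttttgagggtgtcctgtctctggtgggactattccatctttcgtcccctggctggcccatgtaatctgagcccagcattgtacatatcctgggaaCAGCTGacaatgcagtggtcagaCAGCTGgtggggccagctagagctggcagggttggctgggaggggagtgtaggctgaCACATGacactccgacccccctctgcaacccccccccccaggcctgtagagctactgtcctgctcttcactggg
Chrne, chr11:70619217-70619444, minus strand: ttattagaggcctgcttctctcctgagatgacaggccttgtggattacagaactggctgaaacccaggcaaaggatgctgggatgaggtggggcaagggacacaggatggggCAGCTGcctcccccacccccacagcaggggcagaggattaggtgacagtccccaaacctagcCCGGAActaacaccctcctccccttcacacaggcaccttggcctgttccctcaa
Musk, chr4:58285712-58285959, plus strand: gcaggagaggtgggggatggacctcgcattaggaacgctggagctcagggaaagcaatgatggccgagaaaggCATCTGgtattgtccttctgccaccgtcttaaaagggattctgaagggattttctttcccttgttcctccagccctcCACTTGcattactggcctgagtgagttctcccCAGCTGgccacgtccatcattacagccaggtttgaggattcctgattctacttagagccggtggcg

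Start regions were found for 7 of the 9 members. CANNTG occurs in 66.2% of 32851 RefSeq windows of 250 bases, and CAGCTG, a form of CANNTG and so counted within it, in 13.001%. The Chrna1 region held 3 matches to CANNTG, of which 2 were CAGCTG, the nearer 44 bases before the start. That of Chrng also held 3, of which the CAGCTG copies lay 155 and 132 bases before the start. Musk had 3 with 1 CAGCTG at 68 bases, and Chrnb1 had 3 with no CAGCTG. Chrne held 1 CAGCTG at 138 bases and, alone among these 4, a CCGGAA at 76 bases. CCGGAA occurs in 12.03% of all windows and was otherwise matched among the members only at the second Runx1 start, at 106 bases. The RUNX core TGTGGT, found in 14.0% of windows, was in none of the members' windows. Matches were counted over the full 250 bases before each start, the same length as the windows behind these shares. The parts clear of own exons were shorter in some genes and ran from 64 bases (Scn4a) to 250. A match here is a match of letters and shows no binding.

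Chrna1 (chr2:73563215-73580338, GRCm38) had its highest levels in fibre nuclei, but the AHRfl/fl library carried it everywhere. In Myh3-high fibre nuclei it stood at 399.5 CPM (390.8 to 408.4) and 239.7 (230.5 to 249.3), and in Myh3-low at 279 (269.5 to 289.5) and 99.1 (92.3 to 106.2). Satellite or myoblast-like nuclei had 235 and 73.0. Macrophage-like nuclei, which are not known to make this subunit, still held 177 CPM in AHRfl/fl against 14.0 in AHRmKO. The values of fibroblast-like (124 and 9.65), endothelial-like (124 and 13.1) and adipocyte-like nuclei (112 and 7.41) lay close to one another within each library, and their intervals overlapped. Once each nucleus was thinned to 2000 UMIs, 54.1% and 38.3% of Myh3-high and 41.8% and 16.7% of Myh3-low nuclei held a Chrna1 UMI, beside 31.8% and 2.77% of macrophage-like nuclei. Every class was therefore lower in AHRmKO, and as a ratio the gap was widest in the classes that are not muscle, while in CPM it was widest in Myh3-low nuclei.

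Chrnb1 and Chrnd, which encode the beta and delta subunits, were highest in fibre nuclei, lower in satellite or myoblast-like nuclei and much lower in macrophage-like nuclei. Chrnb1 (chr11:69784036-69795943) stood at 165 and 122 CPM in Myh3-low, 194 and 246 in Myh3-high, and 97.8 and 88.2 in satellite or myoblast-like nuclei, against 14.7 and 9.24 in macrophage-like nuclei. Chrnd (chr1:87190607-87200070) stood at 75.4 and 58.6, 98.1 and 100.2, and 50.9 and 41.7 in the same order, against 13.7 and 4.70. In both genes the order of classes was Myh3-high above Myh3-low above satellite or myoblast-like in both libraries, with counting intervals that did not overlap.

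Chrng (chr1:87204657-87212694), the embryonic subunit, differed more with Myh3 than the other 3 embryonic subunit genes. It stood at 209 (200.1 to 217.4) and 179 (169.9 to 188.5) CPM in Myh3-low nuclei, and at 336 (328.4 to 344.6) and 558 (543.7 to 572.3) in Myh3-high nuclei. Satellite or myoblast-like nuclei had 93.4 and 64.4, macrophage-like nuclei 44.8 and 13.9, and fibroblast-like nuclei 35.7 and 13.2. After thinning, 49.3% and 65.2% of Myh3-high nuclei held a Chrng UMI, beside 9.20% and 2.69% of macrophage-like nuclei. Myh3-high nuclei of AHRmKO thus had the highest Chrng level of any class, and the same library had the lower level in each of the other 6 classes plotted. For Myh3-low nuclei this did not hold within bins of Myh3 share, which are not matched states because the free RNA of the libraries differed in Myh3: Chrng stood at 129.8 and 131 in fibre nuclei with no Myh3 UMI, which were 192 of 1790 and 1180 of 1850 Myh3-low nuclei, and at 215 and 243 in the rest.

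Chrne (chr11:70614883-70619216), the adult subunit, was almost absent. Over all nuclei it had 42 UMIs in AHRfl/fl and 18 in AHRmKO, of which 14 and 10 lay in Myh3-low fibre nuclei and 9 and 2 in Myh3-high. These give 1.29 (0.707 to 2.17) and 1.23 (0.592 to 2.27) CPM in Myh3-low and 0.453 and 0.190 in Myh3-high nuclei, while macrophage-like nuclei had 0.429 and 0.171. Fibroblast-like nuclei of either library held 0 UMIs, and a count of 0 allows 0.353 and 0.878 CPM at most (3 UMIs of the class sum). In Myh3-high nuclei Chrne was not distinguishable from the macrophage-like level at this depth. A gene read from the other strand, 4930544D05Rik, overlaps 1043 bases of Chrne and had 1 UMI in each library.

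Nuclei under the nerve ending were looked for by counting, in each thinned nucleus, how many of Chrne, Ache, Colq, Etv5, Ufsp1 and Musk held a UMI. At least 2 of these 6 were found in 61 Myh3-low nuclei of AHRfl/fl (3.41%) and 15 of AHRmKO (0.811%), and in 156 (4.65%) and 63 (3.28%) Myh3-high nuclei. The macrophage-like counts were 5 and 2. Without Musk the counts were 13 and 1 in Myh3-low, 12 and 4 in Myh3-high and 1 and 0 in macrophage-like nuclei, so most rested on Musk. No fibre nucleus had more than 3 of the 6, so no set of junctional nuclei could be separated. At least 3 of the 4 embryonic subunits Chrna1, Chrnb1, Chrnd and Chrng were found together in 536 (16.0%) and 334 (17.4%) Myh3-high nuclei and in 158 (8.83%) and 69 (3.73%) Myh3-low nuclei, beside 18 (0.262%) and 0 macrophage-like nuclei. In Myh3-high nuclei Chrng was in 49.9% with and 48.5% without Chrna1 in AHRfl/fl, and in 66.1% and 64.6% in AHRmKO. In Myh3-low nuclei these shares were 38.2% and 30.2% in AHRfl/fl and 36.9% and 21.9% in AHRmKO. How far the counts follow from the level of each gene alone was not tested.

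Musk (chr4:58285960-58374303) was the member with the lowest ratio between the libraries in Myh3-low fibre nuclei, and its level in macrophage-like nuclei, as named by clusters, did not differ beyond counting error. It stood at 426 (414.0 to 438.7) and 141 (133.4 to 149.9) CPM in Myh3-low nuclei and at 343 (334.7 to 351.0) and 235 (226.0 to 244.6) in Myh3-high nuclei. Satellite or myoblast-like nuclei had 212 and 144 and fibroblast-like nuclei 59.7 and 45.3. Macrophage-like nuclei had 15.8 (14.2 to 17.5) and 15.1 (12.99 to 17.5), values that could not be told apart. This depended on how the class was formed: with nuclei assigned one by one from their own marker UMIs (a gate per nucleus) in place of clusters, the macrophage ratio was -0.83 for Musk and -0.96 for Ncam1, against -0.06 and 0.12. In AHRfl/fl the Myh3-low nuclei had more Musk than the Myh3-high nuclei, and in AHRmKO they had less.

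Scn4a (chr11:106318592-106353288), the adult sodium channel, was found mostly in fibre nuclei: Myh3-high nuclei held 60.3% and 60.5% of its UMIs and Myh3-low nuclei 30.7% and 36.3%. It stood at 30.1 (26.9 to 33.6) and 60.7 (55.5 to 66.3) CPM in Myh3-low and at 32.3 (29.8 to 34.9) and 78.0 (72.7 to 83.5) in Myh3-high nuclei. Fibroblast-like nuclei had 0.705 and 2.05, endothelial-like nuclei 2.10 and 2.01, and satellite or myoblast-like nuclei had 1.60 and 1.68. After thinning, 5.25% and 12.3% of Myh3-low and 5.96% and 13.5% of Myh3-high nuclei held a Scn4a UMI, beside 0.320% and 0.316% of macrophage-like nuclei. Both fibre groups were higher in AHRmKO, with no overlap of the counting intervals. Ttn, one of the 4 genes that chose the fibre nuclei, stood at 13578 and 31362 CPM in Myh3-low and at 16874 and 42665 in Myh3-high nuclei, and the median share of the 4 genes in fibre nuclei was 2.77% and 4.76%. The part of this in the Scn4a values was not tested.

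Ncam1 (chr9:49502136-49798925) and Runx1 (chr16:92601466-92826149) were read in most fibre nuclei. Ncam1 stood at 3473 and 1388 CPM in Myh3-low, 5372 and 4429.6 in Myh3-high, 2151 and 1389 in satellite or myoblast-like and 165 and 179 in macrophage-like nuclei. Runx1 stood at 3545 and 4338, 4686 and 5717, 4493 and 4946, and 1439 and 1980 in the same order. Runx1 was thus also abundant outside muscle, where it is a known factor of blood cells, and after thinning 86.6% and 92.9% of macrophage-like nuclei held a UMI of it. Gm11149, which lies inside Ncam1 on the other strand, had 25.1 and 1.52 UMIs per 100 Ncam1 UMIs in Myh3-low nuclei and 27.7 and 0.776 in Myh3-high. Gm26626, within Runx1 on the other strand, had 1.20 and 0.0227 per 100 Runx1 UMIs in Myh3-low nuclei. Of 1297 counted genes of the antisense type in Myh3-low nuclei, 69.2% were at least 2-fold lower in AHRmKO, and the share was 63.3% in Myh3-high, 64.1% in satellite or myoblast-like and 57.7% in macrophage-like nuclei. Whether the libraries were prepared and counted alike was not tested, and this bears on every ratio between them. Whether counting used strand is not given in the sources used here, and the part of antisense reads in the Ncam1 and Runx1 values was not tested.

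**Figure D1:**
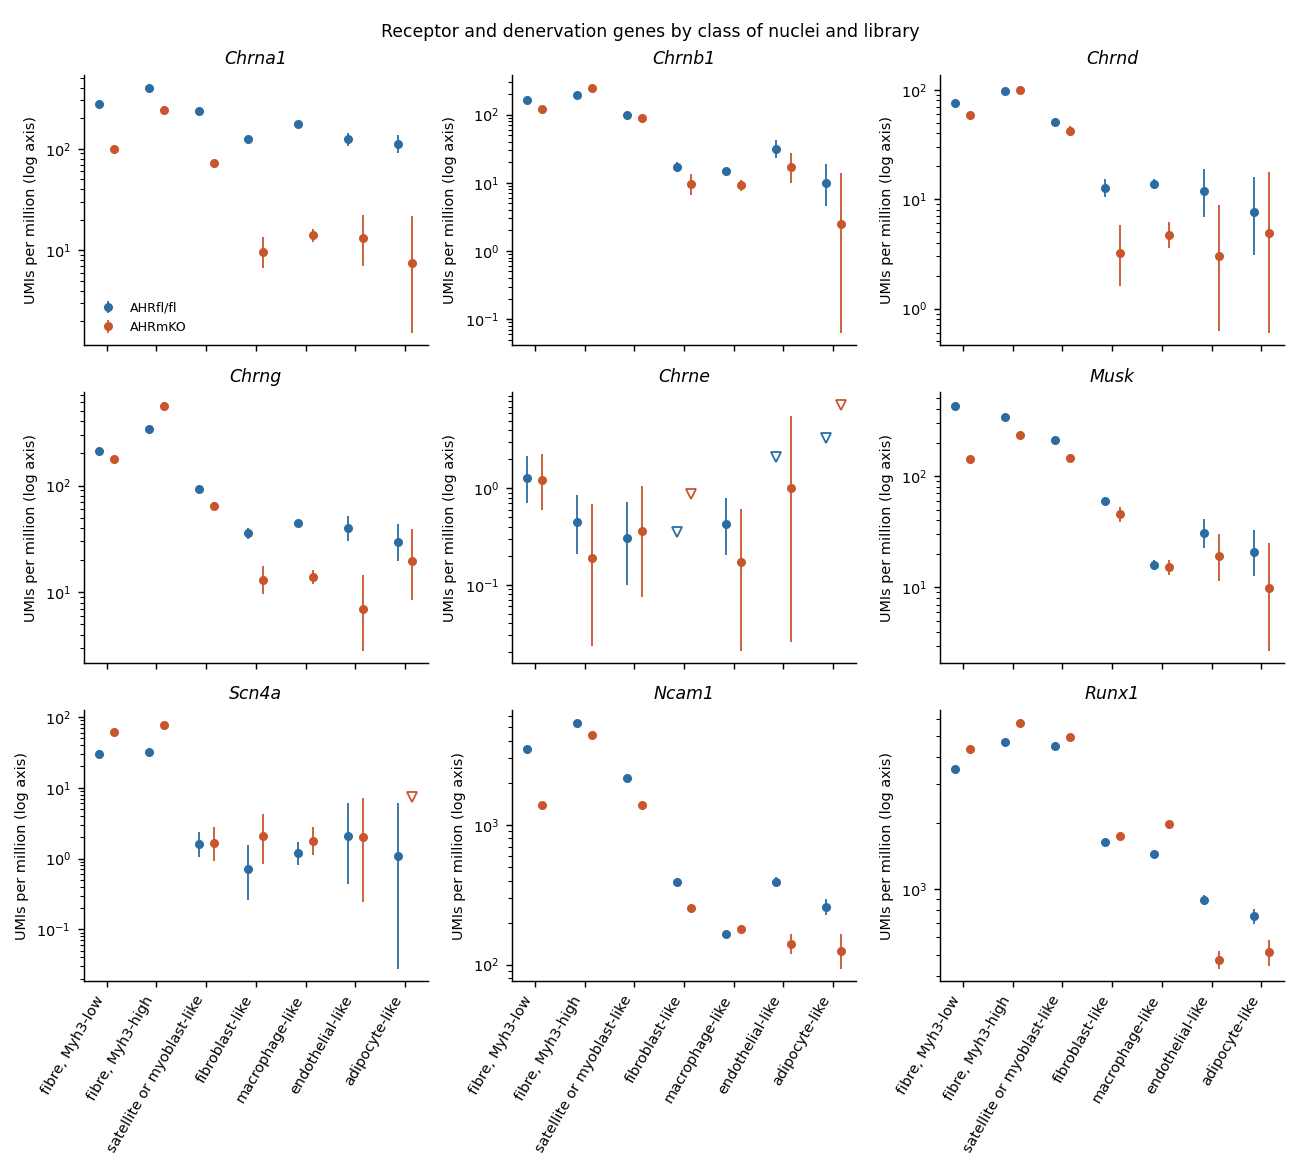
Level in CPM (log axis) of each member in 7 classes of nuclei in AHRfl/fl (blue) and AHRmKO (orange). Bars are 95% Poisson intervals of the class sum, and open triangles are the limit that a count of 0 allows, 3 UMIs of the class sum. Chrna1 is lower in AHRmKO in all 7 classes, Musk is level between the libraries in macrophage-like nuclei named by clusters, though at a log2 ratio of -0.83 with the gate per nucleus, and Scn4a stands out in fibre nuclei only.

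In AHRmKO against AHRfl/fl, Myh3-low fibre nuclei had less Musk, Chrna1 and Ncam1 and more Scn4a. A gene was counted as past the fold when its ratio was at least 2 in either direction and its counting interval left out 1. By this rule 1 of 9 members was higher, where 11.6% of 17366 counted genes were, and 3 of 9 were lower, where 19.8% were. Musk was 3.01-fold lower (log2 ratio -1.59, -1.69 to -1.50), Chrna1 2.82-fold lower (-1.50, -1.61 to -1.38) and Ncam1 2.501-fold lower (-1.32, -1.35 to -1.29). Scn4a was 2.02-fold higher (1.01, 0.81 to 1.22), which is at the threshold, and it was below 2-fold in 5 of 17 other settings, with values down to 0.76. The remaining subunits differed less, with log2 ratios of -0.43 for Chrnb1, -0.36 for Chrnd, -0.22 for Chrng and -0.07 (-1.40 to 1.21) for Chrne, and Runx1 stood at 0.29. These depended on the setting. Without nuclei holding 3 or more UMIs of another class's markers Chrnb1 stood at -1.55 and Chrng at -1.56, both past 2-fold. With free RNA subtracted by the profile of the 200 to under 500 UMI droplets Chrng stood at 0.43, on the other side. The members' median log2 ratio was -0.36, beside -0.05 over all genes.

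Myh3-high fibre nuclei showed another arrangement, in which Chrng was higher in AHRmKO. Here 1 of 9 members was past the fold upward, where 6.96% of 18063 genes were, and 0 of 9 downward, where 19.4% were. Scn4a was 2.42-fold higher (1.27, 1.12 to 1.43). Chrng was 1.66-fold higher (0.73, 0.68 to 0.78) and Chrnb1 1.26-fold (0.34, 0.27 to 0.41), both short of 2-fold. The groups also differed in Myh3 itself, at 2131 and 3685 CPM. Nuclei with a Myh3 share of 0.3% to under 1% were 552 of 3354 and 1127 of 1921. Chrng stood at 328 and 432 from 0.1% to under 0.3% and at 381 and 661 from 0.3% to under 1%. The part of the Myh3 difference in the Chrng ratio was not tested. Chrnd was level at 0.03 (-0.08 to 0.14). Chrna1 at -0.74 (-0.80 to -0.67), Musk at -0.54 (-0.61 to -0.48) and Ncam1 at -0.28 lay on the lower side, and Runx1 again stood at 0.29. The median was 0.03 for the members and -0.15 for all genes.

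The nuclei compared were not of the same make-up. Clusters are called here by genes among their 10 leading ones. In the clusters called by Dpp6 and Pgm5 and by Pkhd1, Dmd and Trdn, nearly all of AHRfl/fl, the first gene was Gm11149, the antisense gene within Ncam1. In Myh3-low nuclei of AHRfl/fl, 27.3% belonged to the cluster led by Dpp6 and Pgm5, 22.5% to that led by Pkhd1, Dmd and Trdn, 21.9% to that led by Trim63 and Trp63, and 18.0% to a cluster of very high depth. In AHRmKO, 32.0% belonged to the cluster led by Agbl1 and Mylk4, which held no AHRfl/fl nucleus, 27.6% to that led by Sytl2, and 14.9% and 12.2% to clusters led by the satellite cell gene Pax7. Of Myh3-high nuclei, 58.6% in AHRfl/fl belonged to the Pkhd1, Dmd and Trdn cluster and 87.6% in AHRmKO to that led by Prkag3 and Ryr1. By their markers the Dpp6 and Pgm5, Sytl2, and Pax7-led clusters were satellite or myoblast-like, so fibre nuclei as gated here include nuclei of that kind. The Prkag3 and Ryr1 cluster raised 4 of the 12 satellite markers and met the same rule. Its leading genes include the fibre genes Ryr1, Myom3 and Capn3, and its Myh3-high AHRmKO nuclei had Pax7 at 41.2 CPM, so that name is not used for it. Ttn stood at 45133 in these nuclei, but it is one of the genes that chose them and does not bear on the name. Pax7 is 1 of the 12 satellite markers. By the gate per nucleus, 23.5% and 46.5% of all Myh3-high nuclei passed as satellite or myoblast. The leading genes of the Sytl2 cluster included mt-Nd1 and mt-Nd2, of the mitochondrial genome. Most clusters were held by 1 library, so a cluster and a library cannot be told apart. The 12 macrophage markers summed to 1481 CPM in AHRfl/fl and 765 in AHRmKO in Myh3-low nuclei, were all lower in AHRmKO, and none was at 0. In Myh3-high nuclei they summed to 1094 and 459. The 11 fibroblast markers summed to 1226 and 836 in Myh3-low, with 10 lower in AHRmKO, and to 1029.8 and 388 in Myh3-high, with all 11 lower; none was at 0. The 12 satellite cell markers summed to 1036 and 1303 in Myh3-low and to 1127 and 1119.96 in Myh3-high nuclei. Their part in the ratios was not tested. Without the fibre nuclei of Pax7-led clusters the Myh3-low ratios were -1.56 for Musk, -1.43 for Chrna1, -1.36 for Ncam1 and 1.42 for Scn4a. Without those of clusters with markers of 2 classes or high depth they were -1.85, -1.61, -1.34 and 0.78, the last below 2-fold. Without nuclei holding 3 or more UMIs of another class's markers they were -2.86, -2.78, -2.16 and 1.14. Satellite cell markers, Myog among them, counted as another class in that setting. The median Myh3-low nucleus held 5 and 4 of their UMIs and so was itself left out, and the number kept is not given. With mitochondrial UMIs at most 5% the ratios were -1.60, -1.46, -1.30 and 1.10.

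Chrna1 was lower in AHRmKO outside muscle as well, and by more. In macrophage-like nuclei 3 of 9 members were past the fold downward, where 19.6% of genes were, and 0 upward, where 4.78% were. Chrna1 was 12.6-fold lower there (-3.65, -3.89 to -3.43), Chrng 3.21-fold lower (-1.68) and Chrnd 2.92-fold lower (-1.55), while Musk stood at -0.06 (-0.33 to 0.20) and Scn4a at 0.58 (-0.31 to 1.45). In satellite or myoblast-like nuclei 1 of 8 counted members, Chrna1 at -1.69 (3.22-fold lower), was past the fold downward, where 18.0% of genes were, and 0 upward, where 5.13% were. Fibroblast-like nuclei had 3 members past the fold downward, where 18.7% of genes were, and 0 upward, where 5.65% were. Endothelial-like nuclei had 4 downward, where 17.4% were, and 0 upward, where 4.50% were. Adipocyte-like nuclei had 2 downward, where 14.0% were, and 0 upward, where 7.91% were. Chrna1 was among them each time, at 12.8-fold, 9.48-fold and 15.2-fold lower. With the gate per nucleus, fibroblast-like nuclei had Chrna1 at -2.54 in place of -3.68 and Chrnd at -0.81 in place of -1.98, the latter no longer past the fold.

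The proportion of Chrna1 to Chrng separated fibre nuclei from the other classes in AHRfl/fl but not from all of them in AHRmKO. In AHRfl/fl there were 404 Chrna1 UMIs per 100 Chrng UMIs in the droplets of 200 to under 500 UMIs (394.7 to 414.3), 262 in barcodes of at most 100 UMIs (234.0 to 293.8), 394 in macrophage-like (368.3 to 422.4), 347 in fibroblast-like (305.2 to 395.6), 311 in endothelial-like (229.2 to 426.3) and 378 in adipocyte-like nuclei (245.2 to 600.8). Fibre nuclei had 134 in Myh3-low and 119 in Myh3-high, and satellite or myoblast-like nuclei lay between with 251. In AHRmKO the proportion was 127 in those droplets (121.0 to 133.2), 104 in barcodes of at most 100 UMIs (89.8 to 119.9), 101 in macrophage-like nuclei (80.5 to 125.7), 55.3 in Myh3-low (50.7 to 60.4) and 43.0 in Myh3-high fibre nuclei (41.0 to 45.04). Satellite or myoblast-like nuclei of AHRmKO, at 113 (100.8 to 127.6), overlapped the macrophage-like value. The other classes of AHRmKO had few UMIs and overlapped one or both fibre groups or had wide intervals: 73.3 in fibroblast-like (45.3 to 117.5), 186 in endothelial-like (68.9 to 549.7) and 37.5 in adipocyte-like nuclei (6.41 to 156.2). In both libraries fibre nuclei held relatively more Chrng than macrophage-like nuclei did.

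When the macrophage-like level of the same library was subtracted, which takes free RNA to be equal in all classes, Chrna1 stood at 223 and 226 CPM in Myh3-high, 103 and 85.0 in Myh3-low and 58.2 and 59.0 in satellite or myoblast-like nuclei. The log2 ratio of these remainders was 0.02, -0.27 and 0.02, where the unsubtracted ratios were -0.74, -1.50 and -1.69. For Musk the remainders were 410.4 and 126 in Myh3-low and 327 and 220.0 in Myh3-high nuclei, with ratios of -1.70 and -0.57. Scn4a kept 28.9 and 58.9 in Myh3-low and 31.0 and 76.2 in Myh3-high nuclei (1.03 and 1.30). Chrng kept 164 and 165 in Myh3-low and 292 and 544 in Myh3-high nuclei (0.01 and 0.90). Under that assumption the libraries were level in Chrna1 in Myh3-high and satellite or myoblast-like remainders and 1.21-fold apart in Myh3-low, while Musk was still lower in both fibre groups, Scn4a higher in both, and Chrng higher in Myh3-high nuclei. Free RNA was estimated at 28.8% and 46.5% of UMIs in Myh3-low nuclei and at 21.3% and 27.9% in Myh3-high nuclei, so the assumption of equal amounts was not met by these estimates. They rest on macrophage marker UMIs, so a fibre nucleus read together with a macrophage would count as free RNA. By their marker UMIs 19.8% and 8.54% of Myh3-low nuclei passed the macrophage gate. Subtracting free RNA by the profile of the 200 to under 500 UMI droplets instead gave Chrna1 a ratio of 0.34 in Myh3-high nuclei. It gave no value in Myh3-low nuclei, because the subtraction left no Chrna1 in those of AHRfl/fl.

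**Figure D2:**
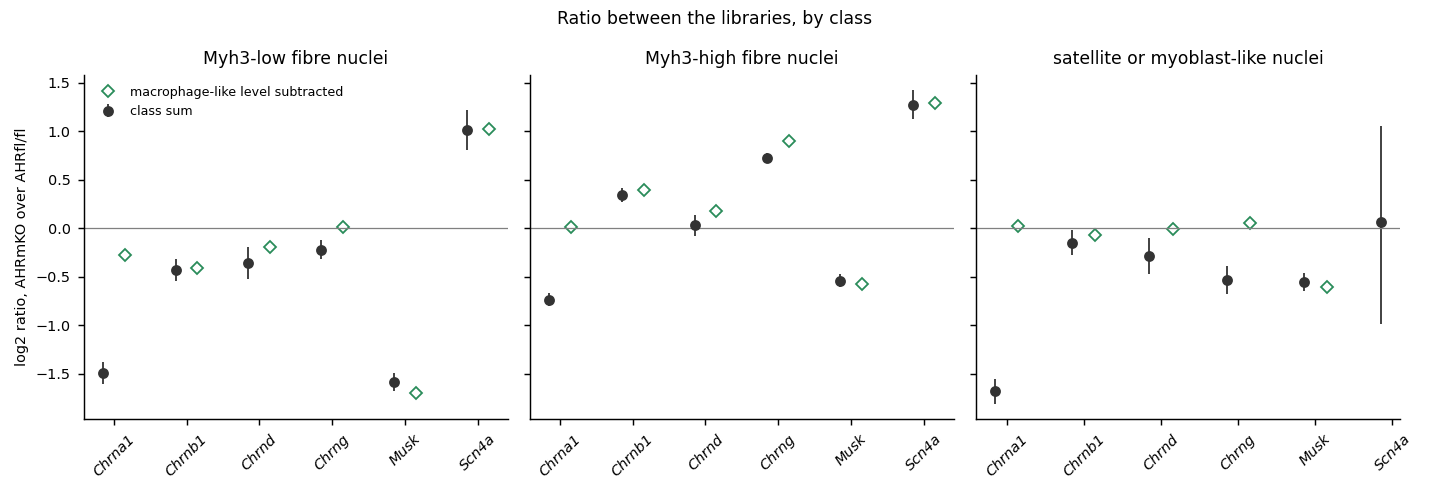
Log2 ratio of AHRmKO over AHRfl/fl for 6 members in Myh3-low fibre, Myh3-high fibre and satellite or myoblast-like nuclei. Black points are the class sums with 95% counting intervals and green diamonds the same after the macrophage-like level was subtracted, which have no interval. Chrna1 moves from -1.50, -0.74 and -1.69 to -0.27, 0.02 and 0.02, and Musk and Scn4a stay near their unsubtracted values in fibre nuclei.

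Within AHRfl/fl the members differed little between Myh3-high and Myh3-low fibre nuclei. None of 9 was past the fold upward, where 1.46% of 18442 genes were, and 1 of 9, Chrne with 9 against 14 UMIs (-1.51, -2.90 to -0.20), was past it downward, where 4.79% were, a call lost in 6 of 17 other settings. Chrng stood at 0.69, Ncam1 at 0.63, Chrna1 at 0.52, Runx1 at 0.40, Chrnd at 0.38 and Chrnb1 at 0.24, all toward Myh3-high. Under the other settings Chrnb1 spanned -0.42 to 0.39, and so changed side, Chrna1 0.42 to 1.12 and Runx1 0.16 to 1.44. Musk at -0.31 (-0.37 to -0.26) stood toward Myh3-low, and Scn4a at 0.10 (-0.10 to 0.30) could not be told from level. The Trim63 and Trp63 cluster made up 21.9% of Myh3-low and 0.954% of Myh3-high nuclei and held 1854 of the 4615 Musk UMIs of Myh3-low nuclei. With Myh3-low given first, Musk stood at 297 and 303 CPM in the Dpp6 and Pgm5 cluster. It stood at 272 and 272 in the cluster of very high depth and at 422 and 390 in that of Pkhd1, Dmd and Trdn.

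Within AHRmKO the contrast was larger, and so was that in Myh3 itself. Myh3 stood at 542 and 186 CPM in Myh3-low and at 2131 and 3685 in Myh3-high nuclei, with AHRfl/fl first. The part of this in the members' contrast was not tested. Of the 9 members 4 were past the fold upward in Myh3-high nuclei, where 7.31% of 15982 genes were, and 1 downward, where 15.2% were. Ncam1 was 3.19-fold higher (1.67), Chrng 3.12-fold (1.64), Chrna1 2.42-fold (1.28) and Chrnb1 2.01-fold (1.01). Chrnd at 0.77 and Musk at 0.73 were on the same side, short of 2-fold, with Runx1 at 0.40 and Scn4a at 0.36. Chrne, with 2 against 10 UMIs, stood at -2.70 (-5.93 to -0.47). The members' median was 0.77 and that of all genes -0.33. With free RNA subtracted by the profile of the 200 to under 500 UMI droplets, these ratios were 2.30 for Ncam1, 1.58 for Chrng, 1.55 for Chrna1, 0.88 for Musk and 0.96 for Chrnb1, the last then short of 2-fold.

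In a finer division by Myh3 share, Chrng and Chrnd were higher in each further bin in both libraries, and Chrna1 and Chrnb1 in AHRmKO only. In AHRmKO, Chrng stood at 131 CPM in the 1180 fibre nuclei with no Myh3 UMI, 243 above 0 to under 0.1%, 432 from 0.1% to under 0.3% and 661 from 0.3% to under 1%. In AHRfl/fl it stood at 129.8, 215, 328 and 381. Only 15 and 40 nuclei had 1% or more, and they are not shown. The libraries were level in nuclei without Myh3 and parted as Myh3 grew. Chrnd stood at 54.4, 77.1, 96.9 and 106 in AHRfl/fl and at 48.5, 72.0, 90.7 and 108 in AHRmKO, with overlapping intervals in every bin. Chrna1 stood at 80.9, 123, 206 and 268 in AHRmKO and at 289, 279, 372 and 542 in AHRfl/fl. Chrnb1 stood at 103, 148, 217 and 270.01 in AHRmKO and at 171, 164, 195 and 192 in AHRfl/fl. Musk stood at 660.3, 407, 352 and 290.3 in AHRfl/fl and at 128, 159, 245 and 228 in AHRmKO, so that the gap between libraries was widest where no Myh3 UMI was read. Scn4a stood at 40.8, 29.2, 32.9 and 28.3 in AHRfl/fl and at 71.8, 45.9, 57.1 and 95.9 in AHRmKO, higher in AHRmKO in each bin.

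**Figure D3:**
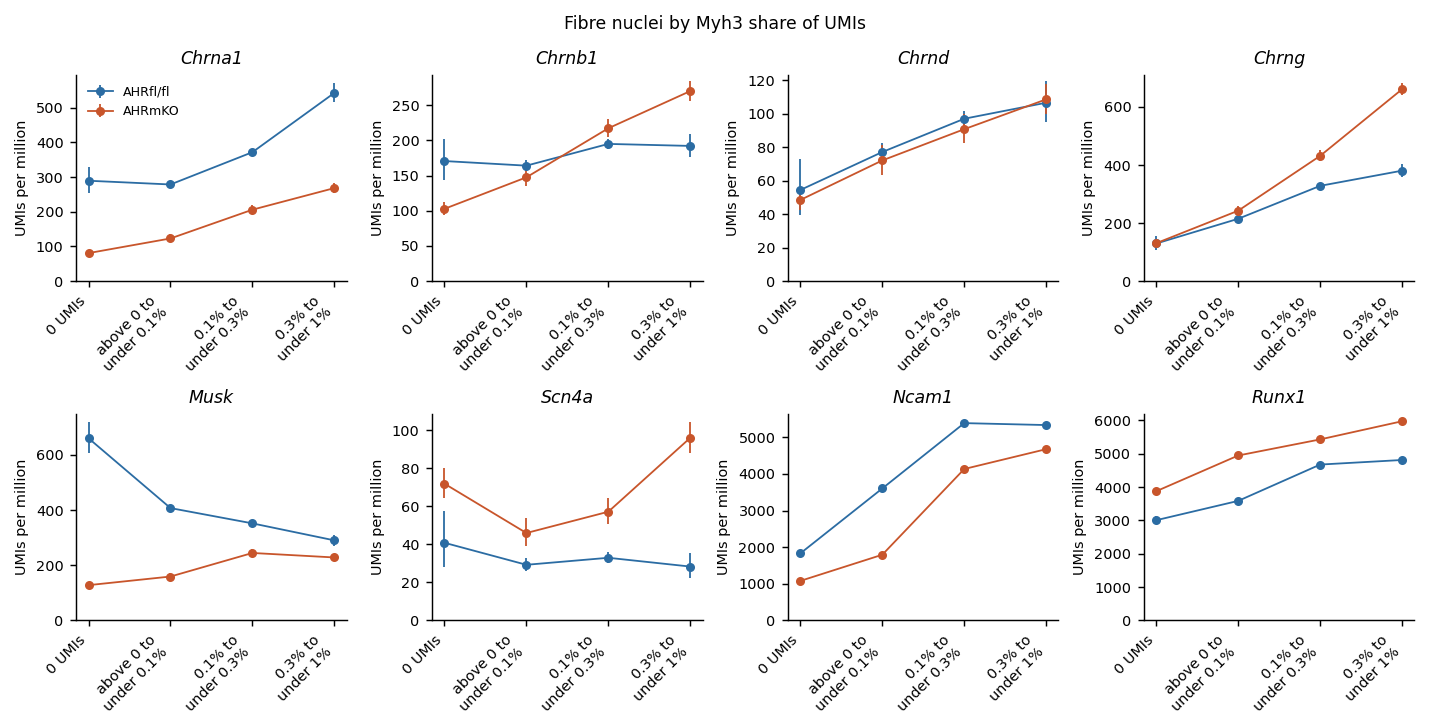
Level in CPM of 8 members in fibre nuclei grouped by the share of their UMIs from Myh3, in AHRfl/fl (blue) and AHRmKO (orange), with 95% counting intervals. Chrng climbs from 131 to 661 across the bins of AHRmKO and from 129.8 to 381 in AHRfl/fl, while Musk in AHRfl/fl goes from 660.3 down to 290.3.

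The clusters showed which fibre nuclei carried each gene. The cluster led by Trim63, Trp63 and Fbxo32, of which Trim63 and Fbxo32 encode ubiquitin ligases of muscle atrophy, had Musk at 937 CPM in 392 Myh3-low nuclei of AHRfl/fl and 580.3 in 68 of AHRmKO, above the other fibre clusters plotted. The same nuclei had little Chrnd (19.2 and 11.5), Chrng (46.0 and 15.3) and Ncam1 (621 and 565). Their Scn4a stood at 73.8 (62.3 to 86.7) and 191 (141.7 to 251.6). They held 7 and 5 of the Chrne UMIs, or 3.54 (1.42 to 7.29) and 19.1 (6.20 to 44.5) CPM. Within this cluster, the only Myh3-low cluster with 50 or more nuclei of each library, Scn4a was 2.59-fold higher in AHRmKO (1.37, 0.88 to 1.84), Musk stood at -0.69 (-0.94 to -0.45), Chrna1 at -1.87 and Chrng at -1.59 (-3.50 to -0.18, from 4 UMIs in AHRmKO). Musk was thus not past the fold here, where it stood at -1.59 in the whole Myh3-low group. Other members also differed here from the whole Myh3-low group: Ncam1 stood at -0.14 (-0.39 to 0.11), not past the fold, Chrnb1 at 0.56 (0.13 to 0.96) and Runx1 at -0.19 (-0.37 to -0.01), both on the other side, and Chrne was 5.40-fold higher from 7 and 5 UMIs.

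The cluster led by Agbl1 and Mylk4, 592 Myh3-low nuclei of AHRmKO whose fibre nuclei had adult myosin (Myh1 at 2921 and Myh4 at 2910.1 CPM), had the lowest Runx1 of the fibre clusters shown, at 904, and the lowest Musk. Chrna1 stood at 22.5, Chrnb1 at 34.7, Chrnd at 9.85, Chrng at 17.3, Musk at 46.0 and Ncam1 at 283, and Scn4a at 173 (155.8 to 191.6). In these nuclei Chrng was near the 13.9 CPM of macrophage-like nuclei. The opposite arrangement was seen in the clusters led by Dpp6 and Pgm5 (AHRfl/fl) and by Sytl2 (AHRmKO), whose Myh3-low nuclei had Scn4a at 6.87 and 5.22, Chrng at 301 and 319, Chrnd at 108 and 98.2, and Runx1 at 6881 and 7340. Fibre nuclei of the Pax7-led clusters of AHRmKO had 2 and 3 Scn4a UMIs, Chrng at 153 and 179 and Runx1 at 6199 and 4291, beside Pax7 at 559 and 1203. Scn4a and Chrng were found at higher levels together in the clusters led by Pkhd1, Dmd and Trdn (42.2 and 371 in Myh3-high nuclei of AHRfl/fl) and by Prkag3 and Ryr1 (85.6 and 591 in those of AHRmKO).

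In Myh3-high nuclei of the cluster led by Prkag3 and Ryr1, which held 59 nuclei of AHRfl/fl and 1682 of AHRmKO, Scn4a stood at 1.40 (0.35 to 2.72), Chrng at 0.69 (0.37 to 1.03), Musk at -0.55 (-0.87 to -0.20) and Chrna1 at -1.03 (-1.31 to -0.74). Scn4a, Chrng and Musk lay close to the values of the whole Myh3-high group, and Chrna1 lay below its value of -0.74 there. Runx1, at -0.34 (-0.41 to -0.26), stood on the other side from its 0.29 in the whole group. Scn4a and Chrng were also compared within single nuclei. In thinned Myh3-low nuclei of AHRmKO a Chrng UMI was found in 4.85% of the 227 nuclei with Scn4a and in 27.2% of the 1623 without it, while in AHRfl/fl the shares were 28.7% of 94 and 33.8% of 1696. Myh3-high nuclei of AHRmKO went the other way, with 72.2% of 259 and 64.1% of 1662. In those of AHRfl/fl the shares were close, at 51% of 200 and 49.2% of 3154. No interval was computed for these shares, so small gaps cannot be read as a direction.

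**Figure D4:**
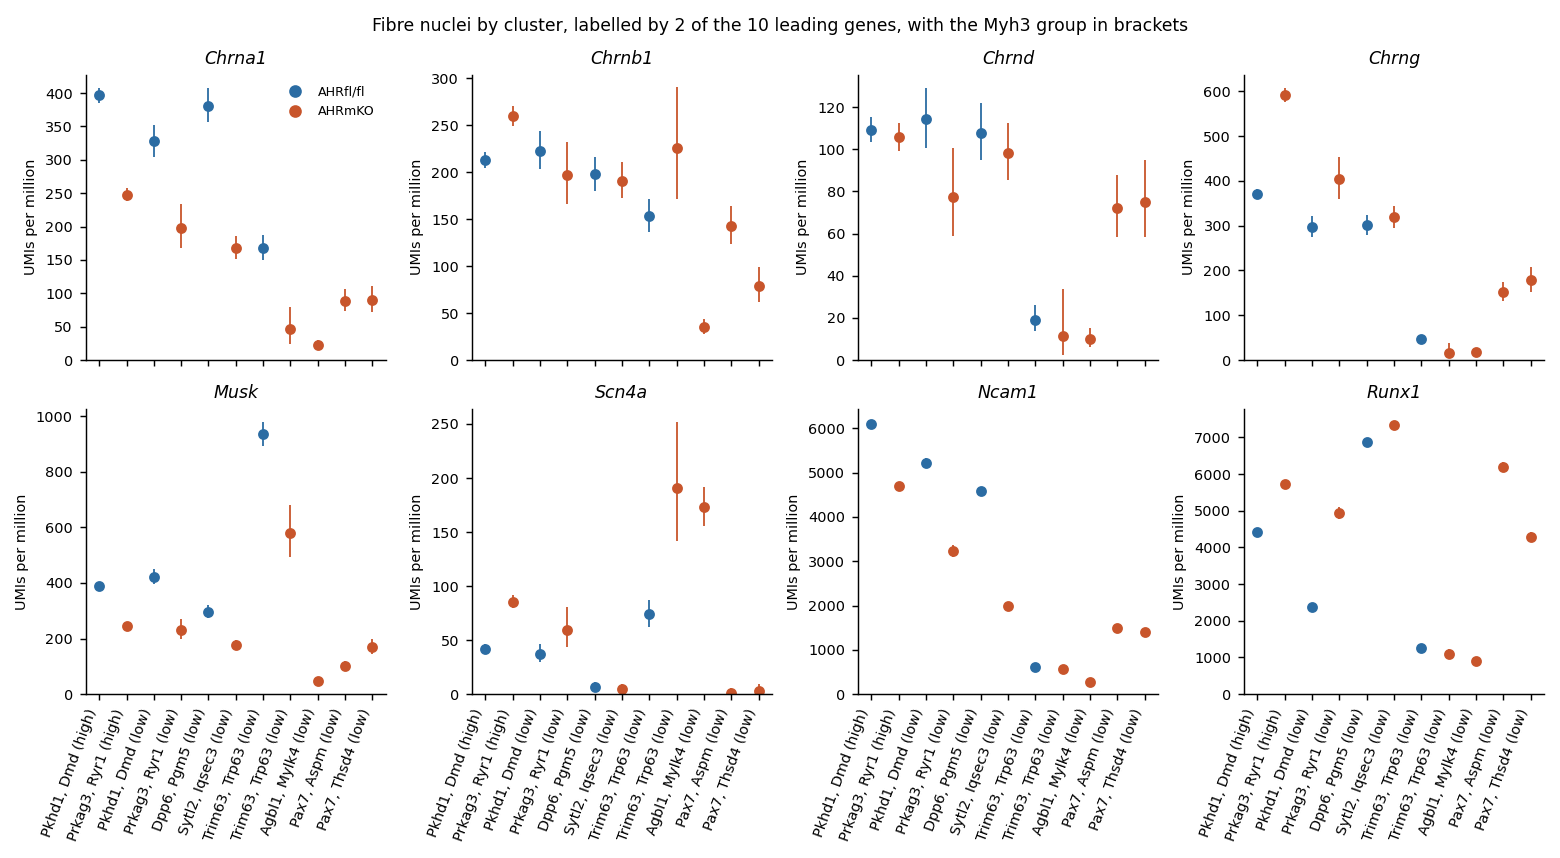
Level in CPM of 8 members in fibre nuclei of the largest clusters, each labelled by 2 of its 10 leading genes with its Myh3 group in brackets, in AHRfl/fl (blue) and AHRmKO (orange), with 95% counting intervals. Musk reaches 937 in the Trim63 and Trp63 cluster, where Scn4a is at 73.8 and 191, and Scn4a is at 173 in the Agbl1 and Mylk4 cluster, where Chrna1, Chrnb1 and Chrnd are lowest.

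Genes that build the synapse with Musk were described from a list of 26, of which 25 had at least 10 UMIs in Myh3-low nuclei. Of these 2 were higher and 6 lower in AHRmKO, with a median of 0.10, where 11.6% and 19.8% of all genes were higher and lower. Agrn, which encodes the nerve-derived and muscle-derived activator of Musk, was 2.23-fold higher, and Etv4, an ETS factor, 12.5-fold from 8 to 75 UMIs. Colq, which anchors acetylcholinesterase, was 3.24-fold lower, and Pdzrn4 4.18-fold lower. In Myh3-high nuclei 3 of 26 were higher and 1 lower, where 6.96% and 19.4% of all genes were: Erbb2, a receptor for neuregulin, was 2.63-fold higher and Nrg1, which encodes neuregulin itself, 10.2-fold lower. Within AHRmKO 7 of 25 were higher and 5 lower in Myh3-high nuclei, where 7.31% and 15.2% of all genes were, among them Erbb3 (5.46-fold higher) and Erbb2 (4.34-fold higher), and Etv4 (5.13-fold lower, 19 against 75 UMIs) and Erbb4, another neuregulin receptor (3.97-fold lower, 17 against 52 UMIs). Within AHRfl/fl none of 25 was past the fold, where 1.46% of all genes were higher and 4.79% lower. The co-receptor Lrp4 stood at 72.9 and 101 CPM in Myh3-low nuclei, a log2 ratio of 0.47.

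Genes of activity and denervation signalling, which tie the receptor genes to nerve input, numbered 20, of which 19 were counted. In Myh3-low nuclei 1 was higher and 5 were lower in AHRmKO, with a median of -0.43, again beside 11.6% and 19.8% of all genes. Myog, which encodes the E-box factor myogenin, was 3.26-fold lower (148 to 45.5 CPM), Hdac9, which represses receptor genes in innervated fibres, 3.03-fold lower, and Tnfrsf12a 3.41-fold lower. Dach2, a repressor of Myog, was 2.55-fold higher with 22 and 42 UMIs. In Myh3-high nuclei Gadd45a, a denervation-induced gene, was 2.77-fold higher, and 4 genes were lower, beside 19.4% of all genes, among them Hdac9 (2.14-fold) and Tnfrsf12a (2.41-fold). Fbxo32 stood in Myh3-high over Myh3-low nuclei at a log2 ratio of -3.45 in AHRfl/fl and -3.68 in AHRmKO.

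Of 10 excitability genes 3 were higher and 3 lower in AHRmKO in Myh3-low nuclei, beside the same 11.6% and 19.8%. Scn4b, a sodium channel beta subunit, was 5.79-fold higher from 15 to 65 UMIs. Clcn1, the chloride channel of adult muscle, was 3.09-fold higher. Cacng1, a subunit of the muscle calcium channel, was 3.23-fold lower and Kcnn3, a potassium channel known from denervated muscle, 2.27-fold lower. In Myh3-high nuclei only Scn4b was past the fold, with 12 against 4 UMIs, beside 6.96% of all genes higher and 19.4% lower, and this call was lost in 6 of 16 other settings. Of the 6 RUNX partners, 0 were higher and 1 lower in AHRmKO in Myh3-low nuclei (Runx1t1, 3.94-fold lower), beside 11.6% and 19.8% of all genes. In Myh3-high nuclei 1 was higher and 0 lower (Cbfa2t3, 3.56-fold higher), beside 6.96% and 19.4%. In Myh3-high over Myh3-low nuclei 0 were higher and 2 lower in AHRfl/fl, beside 1.46% and 4.79%. In AHRmKO 1 was higher and 2 were lower, beside 7.31% and 15.2%. The 11 receptor subunits of neurons and other tissues were near the detection limit. In Myh3-low nuclei 3 were counted (0 higher, 1 lower) and in Myh3-high 5 (1 higher, 2 lower), beside the shares of all genes given above. Chrnb2 was 5.24-fold lower from 21 to 3 UMIs in Myh3-low nuclei. Chrna4 had 3 and 21 UMIs and Chrna10 had 10 and 0 in Myh3-high nuclei.

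Over 14 sums of class and library, the genes whose pattern was most like that of a member, by Pearson correlation of log2(CPM + 1) among 16625 genes, were Ptgds and Scx for Chrna1 (both 0.97), Ankrd1 and Jph2 for Chrnb1 (0.98), Hes6 and Serinc2 for Chrnd (0.98), Srl and Synpo2l for Chrng (0.98), Casc4 and Akap6 for Musk (0.98), Pfkm for Scn4a (0.98), Fhod3 (0.99) and Jam3 (0.98) for Ncam1, and Traf3 and Gm44577 for Runx1 (0.96). The points of a library share its depth and free RNA, so these are descriptions. Chrne had too few UMIs and was left out of these correlations. Among the other members the lowest correlation was between Chrna1 and Scn4a, at 0.52.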

How the data were processed

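The deposited values are raw counts of UMIs from Chromium 3′ HT v3.1 libraries, not normalized by the authors. Cell Ranger 7.0.1 and build mm10 are named in the submitters' processing notes; the annotation, and whether introns and strand were used, are not given in the sources used here. Nuclei were barcodes with 2000 or more UMIs. The 9 members and all lists were chosen with earlier results of these data known. Fibre nuclei were gated as described; other nuclei were named by Leiden clusters (scanpy 1.11.5, Python 3.11.15, 2000 variable genes, 30 components, 15 neighbours, resolution 1), from at least 3 markers 2-fold over the median of other clusters with 10 CPM added, with "like" names. This replaced a planned gate per nucleus after the data were seen. Clusters with markers of 2 classes, a median depth over 2 times the library's or leading genes of another class stayed unnamed (1192 and 56 nuclei outside the fibre gate). Doublets were kept in the values reported and left out by Scrublet scores as an alternative. Counts were summed per class and library (exact Poisson intervals). Ratios have exact conditional binomial intervals, and genes needed 10 UMIs over both sides. Shares were computed in nuclei thinned to 2000 UMIs. The ratio script was tested on simulated data. Named list genes are the 2 highest and 2 lowest ratios past the fold in each comparison, and a few others were chosen after their values were seen. Start regions are from RefSeq (GRCm38.p6) and gene positions from GENCODE on GRCm38. Results for a few other genes are not reported here.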

Additional observations from a re-analysis of the deposited data

Results flagged for a closer look

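Musk stood on opposite sides in the contrast of Myh3-high over Myh3-low fibre nuclei, with a log2 ratio of -0.31 in AHRfl/fl and 0.73 in AHRmKO. Chrnb1 in AHRmKO over AHRfl/fl stood at -0.43 in Myh3-low and 0.34 in Myh3-high fibre nuclei, and Chrng at -0.22 and 0.73. Within bins of Myh3 share Chrng was not lower in AHRmKO, though free RNA of the libraries differed in Myh3 and the bins are not matched states: it stood at 129.8 CPM in AHRfl/fl and 131 in AHRmKO with no Myh3 UMI and at 215 and 243 above 0 to under 0.1%. Nuclei with no Myh3 UMI were 192 of 1790 in AHRfl/fl and 1180 of 1850 in AHRmKO. The 4 sums behind each of these pairs are shared between its contrasts. With 1 library per group, none of these differences was tested.

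Droplets of 200 to under 500 UMIs, which lie outside the classes of nuclei, held more of 4 members in AHRmKO than in AHRfl/fl. Musk stood there at 104.5 against 78.1 CPM, Scn4a at 12.8 against 6.18, Ncam1 at 1536 against 823 and Runx1 at 2941 against 844. In barcodes of at most 100 UMIs Musk stood at 88.3 in AHRmKO against 107 in AHRfl/fl and Ncam1 at 1208 against 1392, the other way, while Scn4a (15.9 against 6.83) and Runx1 (2201 against 1695) were again higher in AHRmKO.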

How the results depend on the processing

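Counts of members past the fold were recomputed under 17 other settings, 13 of them planned and the rest chosen after seeing the data. No call with a finite ratio changed its direction, but some ratios short of 2-fold changed sign. In AHRmKO over AHRfl/fl in Myh3-low nuclei Chrng spanned -1.56 to 0.43, Chrnd -1.75 to 0.11 and Runx1 -0.38 to 0.53. Scn4a in Myh3-high over Myh3-low nuclei of AHRmKO spanned -0.87 to 0.69. In Myh3-low nuclei the 1 member higher in AHRmKO (Scn4a, 2.02-fold) became 0 with a minimum of 3000 UMIs, with the Myh3 split at 0.05% or 0.3%, without Scrublet doublets, and without clusters of 2 classes or high depth, and 2 with free RNA subtracted. The second was Chrna1, otherwise called lower. It was counted as higher because the subtraction left none in AHRfl/fl, which gives no finite ratio. The 3 lower became 2 with the split at 0.3% and with free RNA or the macrophage-like level subtracted, 5 at a fibre threshold of 4% and 6 without nuclei holding 3 or more UMIs of another class's markers. In Myh3-high nuclei the 1 higher in AHRmKO became 0 at the threshold of 4% and 2 with free RNA subtracted, and the 0 lower became 1 with the split at 0.3%. Within AHRfl/fl the 0 higher in Myh3-high became 4 at 4%, 2 without nuclei holding other markers, and 1 with the split at 0.05%, with free RNA subtracted or with the macrophage-like level subtracted. With free RNA subtracted this was Chrna1, again because none was left in Myh3-low nuclei. The 1 lower, Chrne, became 0 at 4%, at both splits, without nuclei holding other markers, after thinning and with the macrophage-like level subtracted. Within AHRmKO the 4 higher became 1 with the split at 0.3% and 7 without nuclei holding other markers, and the 1 lower became 0 in those settings, after thinning and with the macrophage-like level subtracted. The causes were not tested. The log2 ratio of AHRmKO over AHRfl/fl spanned -2.86 to -1.08 for Musk, -2.78 to -0.27 for Chrna1, -2.16 to -0.95 for Ncam1 and 0.76 to 1.42 for Scn4a in Myh3-low nuclei, where Chrna1 had no value with free RNA subtracted because none was left in AHRfl/fl. The lowest values of Musk, Chrna1 and Ncam1 came without nuclei holding 3 or more UMIs of another class's markers, satellite cell markers among them. In Myh3-high nuclei it spanned 0.66 to 1.05 for Chrng, 0.92 to 1.76 for Scn4a, -0.95 to -0.34 for Musk and -1.08 to 0.34 for Chrna1. Of 605 member ratios 340 moved by less than their counting interval and 265 by more, and of 640 list counts 532 stayed within 1.5 times. No replicate could be left out. No paired analysis was possible because each group has 1 library. Chrne, with 42 and 18 UMIs, is limited by depth.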

Other observations

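Trim63, which encodes a ubiquitin ligase of muscle atrophy, stood at 3714 CPM in AHRfl/fl and 6100.4 in AHRmKO in the Myh3-low nuclei of the cluster it leads, and at 1297 in those of the AHRmKO cluster led by Agbl1 and Mylk4.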
